A study of Homo sapiens with 6 samples.

Results

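The genes described here make cholesterol and fatty acids or control their synthesis. They were listed by name and number 31 of the 58721 genes in the count table, of which 30 passed the low-count filter. The list has 17 enzymes of the sterol branch (HMGCS1, MVK, PMVK, MVD, IDI1, FDPS, FDFT1, SQLE, LSS, CYP51A1, TM7SF2, MSMO1, NSDHL, HSD17B7, EBP, SC5D and DHCR7) and 7 of the fatty acid branch (ACLY, ACACA, FASN, SCD, ELOVL6, FADS1 and FADS2). The remaining 7 are regulators and sterol transporters (SREBF1, SREBF2, SCAP, INSIG1, INSIG2, STARD4 and NPC1). RNA was sequenced from HEK293T cells, a line from human embryonic kidney, in 3 wild type libraries and 3 libraries of cells in which CRISPR/Cas9 had disrupted both ALKBH5 and FTO, which encode demethylases that act on N6-methyladenosine in RNA. All 6 cultures grew in DMEM with 10% fetal calf serum, a medium that contains lipoproteins. RNA was taken from Triton lysates made with cycloheximide and cleared by centrifugation, and the labels call it cytoplasmic. Ribosomal RNA was removed, poly(A) RNA was not selected, and GFP and FLuc mRNAs were added as spike-ins. The amounts given are 7 pg of GFP and 1.2 pg of FLuc beside 1 ug of RNA, the same for every library. Counts scaled to the spike-ins are therefore not taken as a measure of RNA per cell. The labels call the replicates of each genotype independent and biological, and the p-values measure the spread between these libraries only. The wild type columns of the table carry the name HEK293G6, which the labels do not explain. How many knockout clones were used is not given in the sources used here, so a difference between clones or between cell lines and the effect of the knockout cannot be told apart.

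Cholesterol and fatty acids both start from acetyl-CoA. In the mevalonate pathway acetyl-CoA becomes isoprenoid units, then squalene, lanosterol and cholesterol, while ACLY, ACACA and FASN build palmitate, which is elongated and desaturated. The genes of both branches are classical targets of the sterol regulatory element-binding proteins (SREBPs), membrane-bound precursors encoded by SREBF1 and SREBF2. SCAP escorts them from the endoplasmic reticulum to the Golgi for cleavage when sterols are low, and INSIG1 and INSIG2 hold the complex back when sterols are high. SREBF2 is best known for sterol genes and SREBF1 for fatty acid genes.

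Total gene counts were between 5634648 and 7551825 per library, so that 3 counts, the upper limit that a count of 0 allows, were worth 0.407 to 0.545 CPM (counts per 1000000 TMM-scaled counts, counting error only). FTO had 106, 96.5 and 112 CPM in the wild type libraries and 53.8, 53.6 and 61.0 CPM in the double knockout libraries, and fell by 0.90 in log2 units (SE 0.06, adjusted p = 4.00e-44). ALKBH5 had 243, 256 and 235 CPM in the wild type libraries and 186, 186 and 187 CPM in the double knockout libraries, and fell by 0.40 in log2 units (SE 0.04, adjusted p = 2.74e-22). Both targeted transcripts were thus lower in every double knockout library and still present. All 7 listed genes typical of HEK293 lines (VIM, KRT8, KRT18, NEFM, NEFL, PAX2 and CDH2) were detected, with summed levels of 1109 to 1182 CPM in wild type and 1584 to 1595 CPM in the double knockout. All 7 were called higher, with log2 fold changes of 0.21 to 1.02. Of all tested genes 28.6% were called higher and 28.5% lower. Hepatocyte markers had at most 3 counts per library each, and their sum was 0 to 0.275 CPM in wild type and 0.308 to 0.4995 CPM in the double knockout, with SERPINA1 at 0 throughout. The adipocyte list summed to 2.34 to 5.30 CPM and 2.77 to 3.36 CPM, with 1 of 4 genes (PLIN1) past the filter and ADIPOQ at 0. Haematopoietic markers summed to 1.27 to 2.20 CPM and 2.24 to 2.92 CPM with CD3E at 0, and fibroblast markers to 12.5 to 16.1 CPM and 8.49 to 11.04 CPM with COL1A2 at 0. Both tested fibroblast markers were called lower, COL1A1 with a log2 fold change of -0.34 (SE 0.15, adjusted p = 0.0397) and LUM with 24, 17 and 11 counts in wild type against 0, 3 and 0 counts in the double knockout (adjusted p = 3.69e-10). For COL1A1 the libraries of the genotypes overlapped. The part of these marker differences in the results was not tested. In bulk RNA, a change in the share of cells that express a gene and a change in RNA per cell cannot be told apart.

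Most of the measured genes of sterol and fatty acid synthesis were lower in the double knockout. Of the 30 tested members 17 fell, 5 rose and 8 did not pass the test, by edgeR's quasi-likelihood test at a Benjamini-Hochberg adjusted p under 0.05 over 14180 genes. Across all tested genes 28.5% fell and 28.6% rose, 57.1% in either direction. Among the 9279 genes with a mean level at or above 17.5 CPM, the lowest mean of a tested member, 36.5% fell and 27.7% rose. The members' log2 fold changes, double knockout over wild type, lay between -0.84 (MSMO1) and 0.94 (TM7SF2), with a median of -0.17 against 0.01 over all tested genes. No member changed by 2-fold or more. The 3 double knockout libraries lay below all 3 wild type libraries for 17 members and above them for 5, beside 30.3% and 30.3% of all tested genes, 60.6% in either direction. With spike-in scaling 17 members were called lower and 4 higher, beside 29.9% and 15% of all tested genes, INSIG1 being the one that lost its call. The falls were uneven. MSMO1, SCD, SQLE and ELOVL6 lost 39.2% to 44.2% of their level, and called falls of this size (log2 fold change of -0.70 or lower) were seen in 657 genes, 4.63% of those tested.

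**Figure D1:**
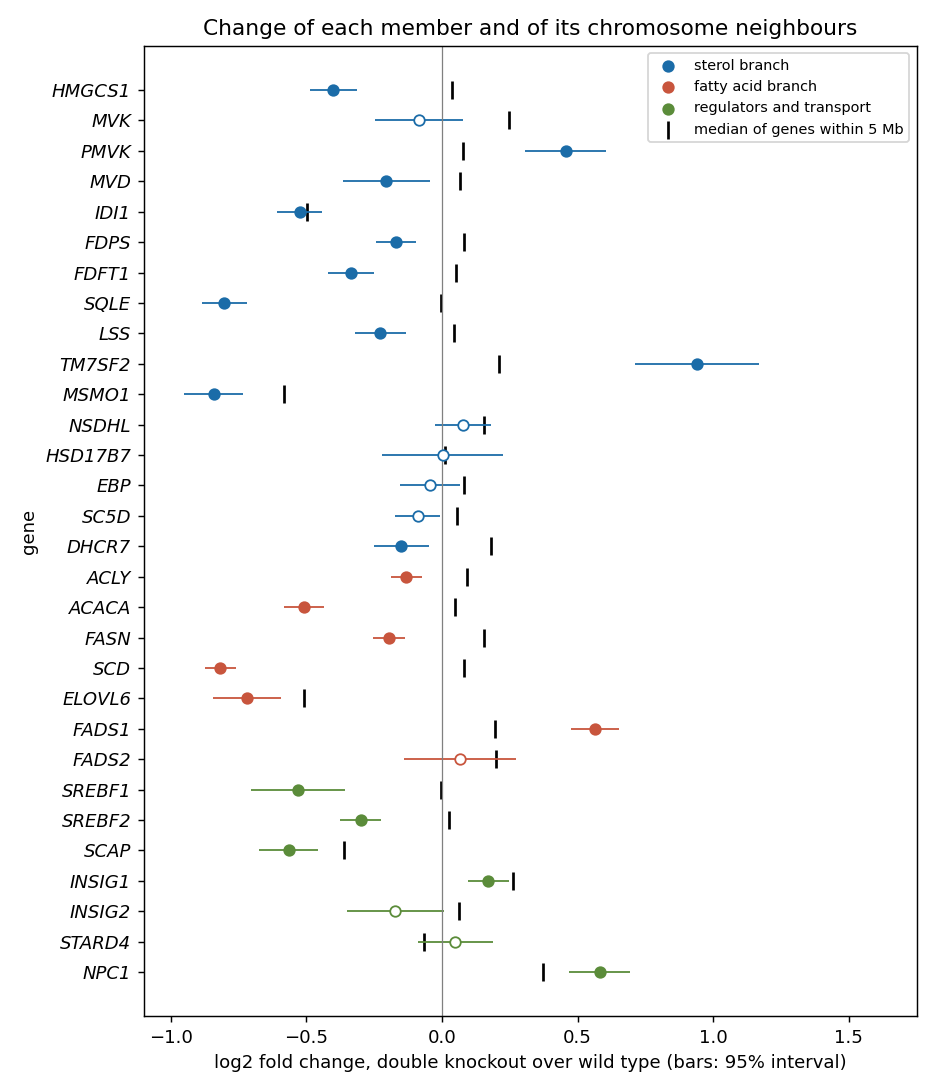
Log2 fold change (double knockout over wild type, x axis) of the 30 tested members, by branch, with 95% intervals; filled points passed the test and open points did not, and a black tick marks the median of tested genes within 5 Mb. Most filled points lie left of 0, with MSMO1, SCD, SQLE and ELOVL6 lowest and TM7SF2, NPC1, FADS1, PMVK and INSIG1 right of 0.

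In the sterol branch 9 of 16 tested enzymes fell, 2 rose and 5 did not pass the test, with a median log2 fold change of -0.16. In the fatty acid branch 5 of 7 fell, 1 rose and 1 did not pass the test, with a median of -0.20. The summed level of the sterol enzymes was 1741, 1724 and 1752 CPM across the wild type libraries, compared with 1414, 1444 and 1440 CPM in the double knockout, a fall in the sum of 17.6%. That of the fatty acid enzymes was 2532, 2477 and 2520 CPM across the wild type libraries, compared with 1957, 1978 and 1960 CPM in the double knockout, a fall in the sum of 21.7%. The groups of libraries did not overlap for either sum. Summed sterol counts divided by summed fatty acid counts, a ratio that no library scaling can alter, were 0.688, 0.696 and 0.696 in wild type and 0.723, 0.730 and 0.735 in the double knockout. The ratio was therefore higher in each double knockout library, but its direction rested on 1 gene, SCD. SCD made up 33.0% of the fatty acid sum in wild type and 23.9% in the double knockout, and its loss equalled 65.8% of the net loss of that branch. With SCD left out of the fatty acid sum, the ratio was lower, not higher, in each double knockout library. The fatty acid sum without SCD also fell by a smaller share than the sterol sum. In the sterol branch the largest share of the net loss was that of SQLE, at 28.3%, followed by IDI1 at 17.9% and MSMO1 at 15.6%. A difference between the branches in the size of their changes was not tested, since the members were chosen with results known.

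**Figure D2:**
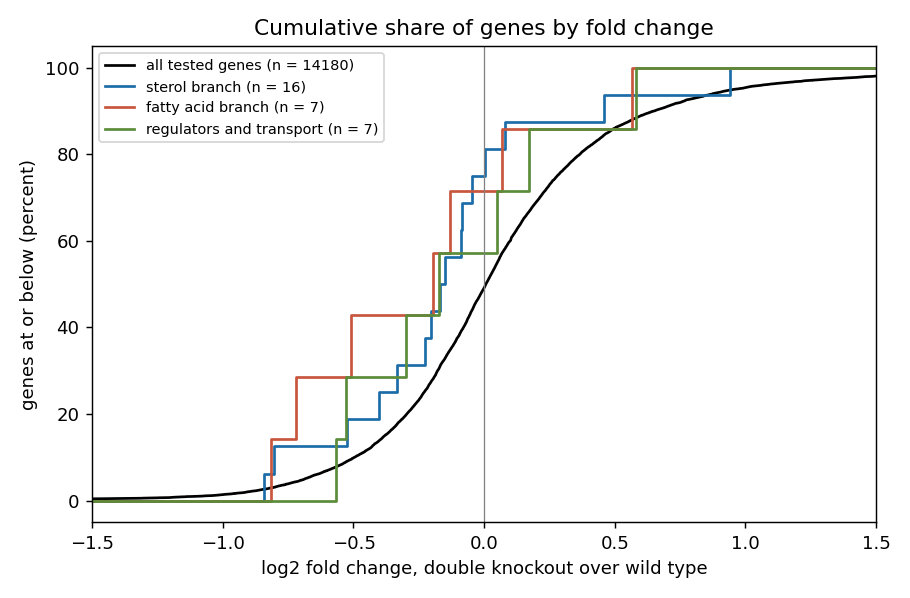
Cumulative share of genes (y axis) by log2 fold change, double knockout over wild type (x axis), for the sterol branch, the fatty acid branch, the regulators and transporters and all 14180 tested genes. The member curves lie mostly to the left of the curve of all genes, with medians of -0.16, -0.20 and -0.17 against 0.01, and each has a few members to its right.

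The transcription factor genes come first in the order of the pathway. SREBF2 had 235, 218 and 231 CPM in the wild type libraries and 183, 189 and 182 CPM in the double knockout libraries. It fell by 0.30 in log2 units (SE 0.04, adjusted p = 2.20e-13), a loss of 18.8%. SREBF1 had 36.6, 38.7 and 32.0 CPM in the wild type libraries and 24.3, 25.4 and 25.1 CPM in the double knockout libraries, and fell by 0.53 in log2 units (SE 0.09, adjusted p = 1.70e-08). For both factors the libraries of the 2 genotypes did not overlap. Per kilobase of merged exons, SREBF2 stood at 30.2 ± 1.15 CPM in wild type and SREBF1 at 4.45 ± 0.429 CPM, so SREBF2 was the more abundant transcript. Per kilobase they stood at 24.5 ± 0.522 and 3.11 ± 0.0702 CPM in the double knockout (SD, n = 3 here and below). SCAP, the escort of both precursors, had 93.5, 102 and 98.9 CPM in the wild type libraries and 61.8, 66.3 and 70.4 CPM in the double knockout libraries, and fell by 0.57 in log2 units (SE 0.06, adjusted p = 2.81e-21). All 3 genes of the SREBP and escort group thus fell. SCAP lies on chromosome 3, where the tested genes within 5 Mb had a median of -0.36, and its value less that median was -0.20. For SREBF1 and SREBF2 the neighbours' medians were near 0, at -0.0042 and 0.02.

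The 5 promoter stretches printed here belong to SREBF2, the one listed gene whose promoter window held the sterol regulatory element letters searched for, and to 4 members whose transcripts are described below: HMGCS1, MSMO1 and SCD, which fell, and INSIG1, which rose with TMM scaling and lost its call with spike-in scaling (adjusted p = 0.576). Each is given 5′ to 3′ on the gene's strand, from RefSeq on GRCh38.p14, begins 250 bases upstream of the RefSeq start and ends before any annotated transcript of the gene. Capitals mark matches to TCACNCCAC, the core of the sterol regulatory element, and to CCAAT, the letters bound by NF-Y, a partner factor of SREBPs, which appear as ATTGG when they lie on the opposite strand.
SREBF2, chr22:41832855-41833078, plus strand: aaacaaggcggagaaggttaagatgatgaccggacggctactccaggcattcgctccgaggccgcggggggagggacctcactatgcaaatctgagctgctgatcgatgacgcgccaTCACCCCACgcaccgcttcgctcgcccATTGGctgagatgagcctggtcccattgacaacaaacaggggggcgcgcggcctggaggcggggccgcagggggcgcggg
HMGCS1, chr5:43313513-43313662, minus strand: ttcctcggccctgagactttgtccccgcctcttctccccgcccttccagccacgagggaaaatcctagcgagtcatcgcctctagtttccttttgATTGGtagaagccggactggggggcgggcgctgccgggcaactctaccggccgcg
MSMO1, chr4:165327419-165327622, plus strand: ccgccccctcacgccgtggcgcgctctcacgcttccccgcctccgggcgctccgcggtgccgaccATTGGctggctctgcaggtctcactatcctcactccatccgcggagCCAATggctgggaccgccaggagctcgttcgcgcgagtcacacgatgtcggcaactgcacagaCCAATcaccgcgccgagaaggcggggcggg
SCD, chr10:100346983-100347123, plus strand: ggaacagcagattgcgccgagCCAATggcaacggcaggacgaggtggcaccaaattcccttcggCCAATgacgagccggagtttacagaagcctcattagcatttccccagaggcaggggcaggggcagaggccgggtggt
INSIG1, chr7:155297628-155297775, plus strand: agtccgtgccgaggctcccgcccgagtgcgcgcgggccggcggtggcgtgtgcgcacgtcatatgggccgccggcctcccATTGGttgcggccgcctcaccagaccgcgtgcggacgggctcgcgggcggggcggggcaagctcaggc
The SREBF2 stretch holds TCACCCCAC starting 133 bases upstream of the start, with ATTGG close by, 106 bases upstream. The MSMO1 stretch holds 3 matches to CCAAT and the SCD stretch 2, while those of HMGCS1 and INSIG1 hold 1 each.

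Promoter windows of 300 bases (250 before to 50 after the start) were matched for 28 of 31 members, without FASN, FDFT1 and SQLE. All searches covered both strands, and matches on opposite strands may share letters. TCACNCCAC was found in 1 of the 28 (SREBF2), against 1.13% of all 35116 windows and 1.32% of tested genes with a window. CACGTG, the E-box, was found in 4 (INSIG1, LSS, SC5D and SCAP), against 7.26% of all windows and 12.8% of tested genes. CCAAT was found in 20 of 28 members, or 71.4%, against 34.6% of windows and 43.4% of tested genes. By branch it was found in 13 of 15 sterol genes, 4 of 6 fatty acid genes and 3 of 7 regulators and transporters. It was present in 11 of 14 members that fell, 2 of 5 that rose and 7 of 8 that did not pass the test. A match describes letters in a window and is not a bound site, and the absence of a match says only that the letters are not in that window.

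The first steps of the mevalonate pathway did not move together. HMGCS1 (ENSG00000112972.14, chromosome 5, 43289395 to 43313512, hg38), the synthase that makes hydroxymethylglutaryl-CoA, had 152, 155 and 162 CPM in the wild type libraries and 123, 119 and 112 CPM in the double knockout libraries. It fell by 0.40 in log2 units (SE 0.04, adjusted p = 2.11e-17), from 156 ± 4.82 to 118 ± 5.67 CPM, with no overlap between the genotypes, and shares 14.95% of its exon bases with AC114947.2. PMVK (ENSG00000163344.5, chromosome 1, 154924734 to 154936991), the kinase that adds the second phosphate to mevalonate, had 36.6, 37.3 and 32.1 CPM in the wild type libraries and 47.1, 51.1 and 48.3 CPM in the double knockout libraries. It rose by 0.46 in log2 units (SE 0.08, adjusted p = 1.68e-08), and all 3 double knockout libraries lay above wild type. MVK, which adds the first phosphate, was not called, with a log2 fold change of -0.09 (95% interval -0.25 to 0.08, adjusted p = 0.382) at 35.6 and 33.6 CPM on average. MVD, the decarboxylase that makes isopentenyl diphosphate, had 38.9, 41.4 and 33.9 CPM in the wild type libraries and 33.0, 34.6 and 32.3 CPM in the double knockout libraries, and these overlapped. It was called lower by 0.21 in log2 units (SE 0.08, adjusted p = 0.0233), and the call was lost without wild type replicate 1 (adjusted p = 0.0535), wild type replicate 2 (0.167), double knockout replicate 1 (0.0514) or double knockout replicate 3 (0.0783), and with DESeq2 (0.145) or upper quartile scaling (0.130).

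Both isoprenoid enzymes fell. IDI1 (ENSG00000067064.11, chromosome 10, 1039152 to 1049170), the isomerase of the isoprenoid building block, had 177, 178 and 184 CPM in the wild type libraries and 130.05, 116 and 128 CPM in the double knockout libraries, and fell by 0.53 in log2 units (SE 0.04, adjusted p = 1.47e-29). IDI1 lies near the end of chromosome 10, where the 19 tested neighbours within 5 Mb had a median of -0.50. Its value less that median was -0.03, so it moved about as much as the genes around it. FDPS, which makes farnesyl diphosphate, had 225, 216 and 232 CPM in the wild type libraries and 197, 199.6 and 200.02 CPM in the double knockout libraries, and fell by 0.17 in log2 units (SE 0.04, adjusted p = 3.08e-05). FDPS has near-identical processed pseudogenes and 18.6% of its exon bases are shared with RUSC1-AS1, so its count is uncertain. IDI1 shares 14.8% of its exon bases with IDI2-AS1.

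From squalene to lanosterol all 3 enzymes fell, with SQLE well ahead. SQLE (ENSG00000104549.11, chromosome 8, 124998497 to 125022283), the squalene epoxidase and a rate-limiting enzyme of the later pathway, had 203, 199 and 208 CPM in the wild type libraries and 116, 110.2 and 123 CPM in the double knockout libraries. It fell by 0.80 in log2 units (SE 0.04, adjusted p = 1.22e-60), from 203 ± 4.23 to 116 ± 6.43 CPM, a loss of 42.7%. Its 29 tested neighbours had a median of -0.0022, so SQLE fell while the genes around it, taken by their median, did not. FDFT1, squalene synthase on the same chromosome, had 166, 175 and 173 CPM in the wild type libraries and 127, 143 and 136 CPM in the double knockout libraries, and fell by 0.33 in log2 units (SE 0.04, adjusted p = 1.40e-13). LSS, which closes the sterol rings to make lanosterol, had 128, 125 and 125 CPM in the wild type libraries and 102, 111 and 110.1 CPM in the double knockout libraries, and fell by 0.23 in log2 units (SE 0.05, adjusted p = 7.00e-06). The genotypes did not overlap for any of the 3 genes.

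The enzymes from lanosterol to cholesterol showed the widest range of the pathway: of 7 tested, 2 fell, 1 rose and 4 did not pass the test. MSMO1 (ENSG00000052802.12, chromosome 4, 165327623 to 165343160), the oxidase that removes methyl groups from the sterol, had 112, 102 and 110.0 CPM in the wild type libraries and 56.9, 66.0 and 57.0 CPM in the double knockout libraries. It fell by 0.84 in log2 units (SE 0.06, adjusted p = 8.98e-42), from 108 ± 5.48 to 60.0 ± 5.24 CPM, the lowest value among the members. Its 16 tested neighbours on chromosome 4 also had a low median, -0.58, and the value less that median was -0.26. TM7SF2 (ENSG00000149809.14, chromosome 11, 65111845 to 65116384), a sterol reductase, had 12.5, 11.4 and 12.2 CPM in the wild type libraries and 22.0, 23.1 and 24.2 CPM in the double knockout libraries. It rose by 0.94 in log2 units (SE 0.12, adjusted p = 2.96e-14), from 12.03 ± 0.565 to 23.1 ± 1.09 CPM, the largest rise among the members, and its double knockout libraries all lay far above wild type. The 194 tested neighbours of TM7SF2 had a median of 0.21.

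DHCR7, a reductase of the last step, had 103, 98.2 and 101 CPM in the wild type libraries and 85.4, 91.1 and 95.5 CPM in the double knockout libraries, which did not overlap. It was called lower by 0.15 in log2 units (SE 0.05, adjusted p = 0.00814), and the call was lost without double knockout replicate 1 (adjusted p = 0.0746), with DESeq2 (0.0721) and with upper quartile scaling (0.149). SC5D, a desaturase of the late pathway, was not called at -0.09 (95% interval -0.17 to -0.01, adjusted p = 0.0556), although its libraries did not overlap, with 164, 163 and 157 CPM in the wild type libraries and 155, 149 and 150.1 CPM in the double knockout libraries. SC5D was called without wild type replicate 3 (adjusted p = 0.0372) or without double knockout replicate 1 (0.0297). NSDHL and HSD17B7, which act with MSMO1 in demethylation, and the isomerase EBP were not called. Their log2 fold changes were 0.08 (95% interval -0.03 to 0.18, adjusted p = 0.198), 0.00 (95% interval -0.22 to 0.23, adjusted p = 0.987) and -0.04 (95% interval -0.15 to 0.06, adjusted p = 0.509), and each interval includes 0. HSD17B7 has a near-identical pseudogene, so its count is uncertain.

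CYP51A1 (ENSG00000001630.16, chromosome 7, 92112151 to 92134803), the lanosterol demethylase, could not be measured. The table lists 0, 0 and 1 counts in wild type and 1, 0 and 0 counts in the double knockout, which lie under the limit that a count of 0 allows. Of its exon bases, 83.2% are shared with other annotated genes, among them AC000120.2, with 0 counts, and AC000120.3, with 103 counts in all libraries together. How reads over shared bases were counted is not given in the sources used here, so its level was not determined and no absence can be read from these counts.

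In the fatty acid branch the 3 enzymes that build palmitate all fell, ACACA by the largest amount. ACLY, which makes cytosolic acetyl-CoA from citrate, had 621, 620.1 and 627 CPM in the wild type libraries and 567, 562 and 576 CPM in the double knockout libraries. It fell by 0.13 in log2 units (SE 0.03, adjusted p = 3.83e-05), a loss of 8.68%. ACACA, the acetyl-CoA carboxylase that commits carbon to fatty acids, had 268, 253 and 255 CPM in the wild type libraries and 182, 190.4 and 174 CPM in the double knockout libraries. It fell by 0.51 in log2 units (SE 0.04, adjusted p = 1.55e-34), a loss of 29.7%. FASN, the fatty acid synthase, had 609.7, 587 and 598 CPM in the wild type libraries and 505, 542 and 519.9 CPM in the double knockout libraries, and fell by 0.20 in log2 units (SE 0.03, adjusted p = 1.02e-09). For each of the 3 genes every double knockout library lay below every wild type library. The neighbours of ACLY, ACACA and FASN, all on chromosome 17, had medians of 0.09, 0.05 and 0.16, so these genes went against the median of the genes around them.

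SCD (ENSG00000099194.5, chromosome 10, 100347124 to 100364834), the desaturase that makes oleate from stearate, was the most abundant member per kilobase in wild type. It had 828, 812 and 843 CPM in the wild type libraries and 472, 466 and 470.3 CPM in the double knockout libraries. It fell by 0.82 in log2 units (SE 0.03, adjusted p = 4.24e-106), from 828 ± 15.1 to 469 ± 2.72 CPM, a loss of 43.3%. Among its 105 tested neighbours the median was 0.08, and no neighbour had a value as low as SCD. Per kilobase of merged exons, SCD stood above ACLY in wild type, at 154 ± 2.81 against 119 ± 0.703 CPM. In the double knockout it stood below ACLY, at 87.5 ± 0.508 against 109 ± 1.31 CPM, which turned the order of the 2 most abundant members. The next levels per kilobase in wild type were those of FASN (63.9 ± 1.21), FDPS (60.3 ± 2.17) and INSIG1 (53.1 ± 0.954 CPM). At the low end stood FADS2 (1.85 ± 0.201), TM7SF2 (3.53 ± 0.166) and HSD17B7 (3.66 ± 0.0784 CPM), and the last of these neighbours in the order, TM7SF2 and HSD17B7, differed by less than the sum of their SDs.

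**Figure D3:**
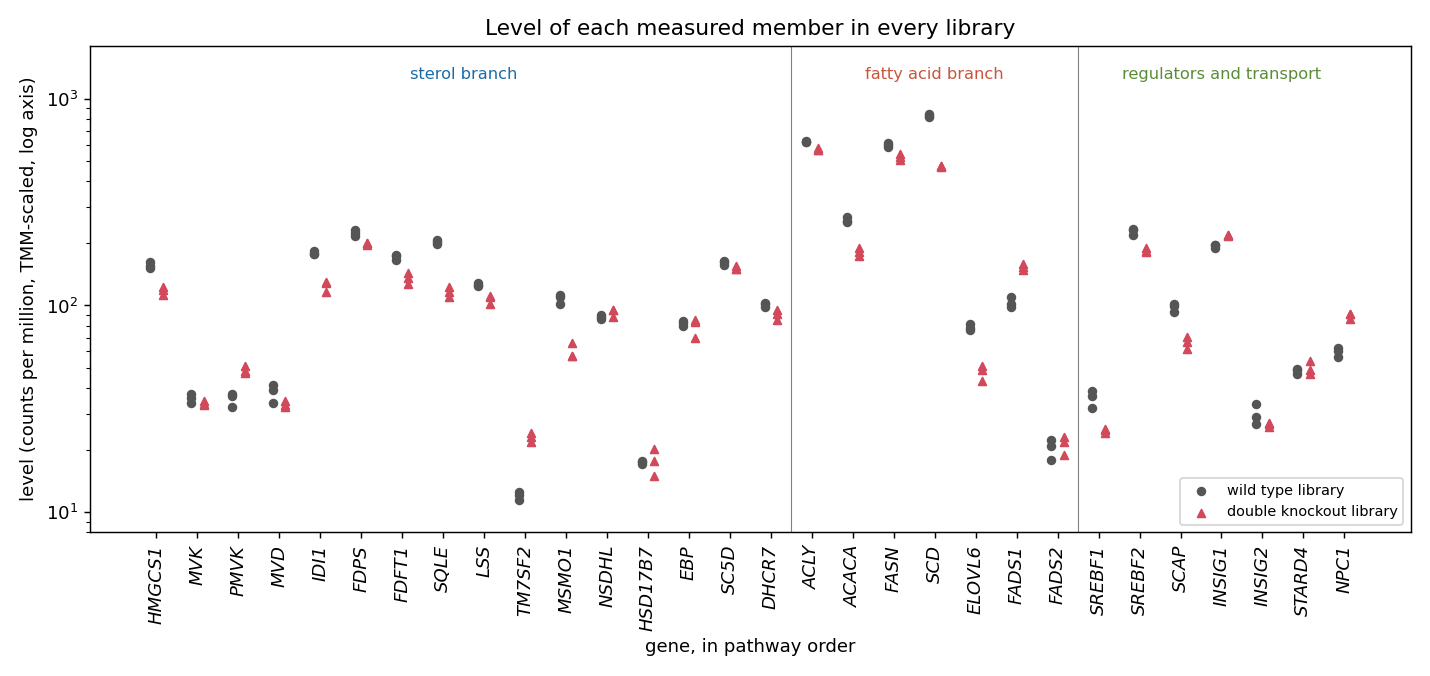
Level of each of the 30 tested members in the 6 libraries, by branch. Levels are CPM on a log axis, not divided by exon length, with wild type and double knockout libraries as separate points. SCD, ACLY and FASN are highest. The points of SCD, SQLE and MSMO1 separate downwards in the double knockout and those of TM7SF2, FADS1 and NPC1 upwards.

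The elongase and the desaturases of longer chains divided. ELOVL6, which elongates palmitate to stearate, had 81.4, 75.8 and 78.2 CPM in the wild type libraries and 51.0, 48.8 and 43.4 CPM in the double knockout libraries, and fell by 0.72 in log2 units (SE 0.06, adjusted p = 5.88e-26). Like MSMO1 it lies on chromosome 4, and its 42 tested neighbours had a median of -0.51, which left -0.21 after subtraction. FADS1 (ENSG00000149485.18, chromosome 11, 61799625 to 61829318), a desaturase of polyunsaturated fatty acids, had 102, 110.1 and 98.2 CPM in the wild type libraries and 159, 149 and 153 CPM in the double knockout libraries. It rose by 0.56 in log2 units (SE 0.05, adjusted p = 4.47e-30), from 103 ± 6.06 to 154 ± 4.86 CPM, with no overlap between the genotypes. Its 172 tested neighbours had a median of 0.19, which left 0.37 after subtraction. FADS2, a desaturase of the same pathway encoded beside FADS1, had 22.3, 17.9 and 20.9 CPM in the wild type libraries and 21.8, 18.9 and 23.2 CPM in the double knockout libraries, which overlapped, and was not called at 0.07 (95% interval -0.14 to 0.27, adjusted p = 0.603).

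Among the genes that hold back or move sterols, INSIG1 and NPC1 rose. INSIG1, which retains the SCAP complex in the endoplasmic reticulum and is itself a classical SREBP target, had 196, 196 and 189.9 CPM in the wild type libraries and 219, 219 and 217 CPM in the double knockout libraries. It rose by 0.17 in log2 units (SE 0.04, adjusted p = 3.30e-05) with TMM scaling, but with spike-in scaling its value was 0.06 and the call was lost (adjusted p = 0.576). The 43 tested neighbours of INSIG1 on chromosome 7 had a median of 0.26, and its value less that median was -0.09. INSIG2, its paralog, had 33.3, 28.8 and 26.9 CPM in the wild type libraries and 25.8, 26.9 and 26.7 CPM in the double knockout libraries, and was not called at -0.17 (95% interval -0.35 to 0.01, adjusted p = 0.0941), although it was called lower without wild type replicate 3 (-0.23, adjusted p = 0.0358). NPC1, which exports cholesterol from lysosomes, had 62.1, 60.0 and 56.1 CPM in the wild type libraries and 91.2, 85.6 and 91.2 CPM in the double knockout libraries. It rose by 0.58 in log2 units (SE 0.06, adjusted p = 9.03e-21), beside a median of 0.37 among its 28 tested neighbours. STARD4, a cytosolic sterol carrier, was not called at 0.05 (95% interval -0.09 to 0.19, adjusted p = 0.572). The 7 regulators and transporters together summed to 684 to 705 CPM in wild type and 659 to 662 CPM in the double knockout, a fall in the sum of 4.72%. Their median log2 fold change was -0.17, and it moved to -0.08 without wild type replicate 1.

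Ratios of counts within a library do not depend on library scaling, and 3 pairs of related members were compared in this way. SREBF2 over SREBF1 was 6.42, 5.64 and 7.23 in wild type and 7.54, 7.46 and 7.25 in the double knockout. INSIG1 over INSIG2 was 5.88, 6.81 and 7.07 in wild type and 8.48, 8.13 and 8.14 in the double knockout. FADS1 over FADS2 was 4.59, 6.14 and 4.70 and 7.27, 7.87 and 6.61. All 3 double knockout libraries lay above wild type for each pair. For SREBF2 over SREBF1 the highest wild type and the lowest double knockout library nearly met. The mean differences were 0.21, 0.33 and 0.50 on the log2 scale. The two-sided exact permutation test gave p = 0.1 for each pair, the smallest that 3 against 3 libraries allow, and 0.1 after Benjamini-Hochberg adjustment over 3 pairs, so no pair could pass.

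**Figure D4:**
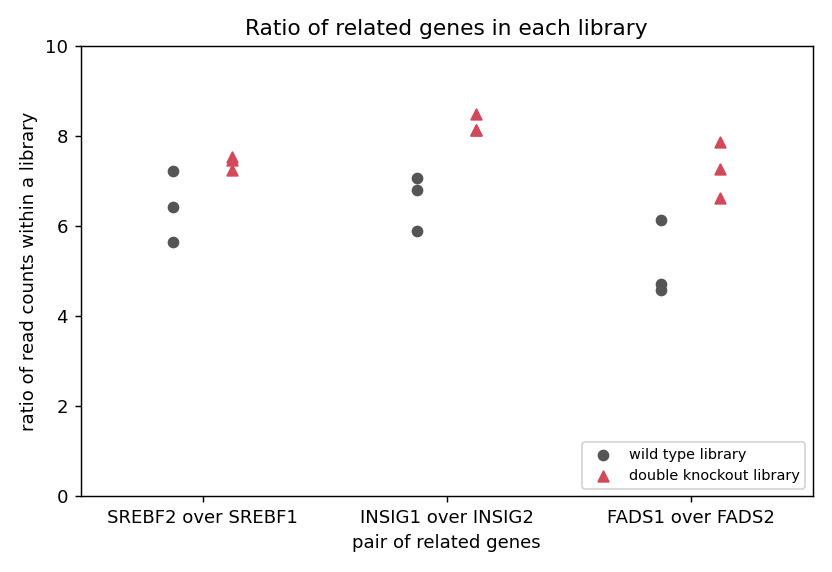
Count ratio of 3 pairs of related members in each library (y axis, linear scale), with wild type and double knockout libraries as separate points. Every double knockout point lies above the wild type points of its pair, with almost no gap for SREBF2 over SREBF1.

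In some chromosome regions the values of the tested genes leaned to 1 side of 0, so each member was also set beside the tested genes within 5 Mb of its start, whose medians ran from -0.58 around MSMO1 to 0.37 around NPC1. All 17 members that fell lay below the median of their neighbours. Of the 5 that rose, 4 lay above it, and INSIG1 (called with TMM scaling and not with spike-in scaling) lay below. These counts were largely set by the calls themselves, since most neighbour medians were near 0, with a median of 0.06 over the members. Over the 30 tested members 25 lay below their neighbours and 5 above, with a median difference of -0.23. The median difference was -0.26 in the sterol branch, -0.22 in the fatty acid branch and -0.20 among the regulators. IDI1, MSMO1, ELOVL6 and SCAP had neighbours with medians of -0.50, -0.58, -0.51 and -0.36. The part of these local shifts in the members' changes was not tested.

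Outside the 31 members, 64 genes with roles around these pathways were listed, and 60 passed the filter. Of these 24 fell, 13 rose and 23 did not pass the test, with a median of -0.06, beside 28.5% lower and 28.6% higher over all tested genes. With spike-in scaling 24 were lower and 7 higher, beside 29.9% and 15% of all tested genes. The counts by group below are small and stand beside the same shares. Among late sterol and branch enzymes 3 of 5 fell. LBR, a sterol reductase with the same activity as TM7SF2, fell by 0.26 in log2 units (SE 0.03, adjusted p = 2.95e-12), from 329 ± 2.42 to 275 ± 5.71 CPM. ACAT2, which makes acetoacetyl-CoA, fell by 0.33 in log2 units (SE 0.06, adjusted p = 1.36e-08), the median of its neighbours being -0.33. Of its exon bases 52.3% are shared with genes on the opposite strand, so its count is uncertain. Of the 8 tested genes of other isoprenoid outlets 5 fell and 0 rose. Among them PDSS1, which makes the side chain of coenzyme Q, fell by 0.75 in log2 units (SE 0.06, adjusted p = 4.44e-33), and NUS1, a subunit of the dolichol-forming enzyme, by 0.51 in log2 units (SE 0.05, adjusted p = 8.90e-21). PDSS1 shares 10.5% of its exon bases with ABI1. The neighbours of PDSS1 had a median of -0.05 and those of NUS1 one of -0.46.

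In SREBP processing and turnover 5 of 8 genes fell. FBXW7, a ubiquitin ligase subunit that recognises nuclear SREBPs, fell by 0.59 in log2 units (SE 0.05, adjusted p = 3.80e-25), and SEC24D, a coat protein of vesicles leaving the endoplasmic reticulum, fell by 0.65 in log2 units (SE 0.08, adjusted p = 4.14e-14). Both had neighbours with low medians, -0.46 and -0.62. In sterol efflux and LXR signalling 2 of 7 rose and 1 fell: RXRA, the partner receptor of LXR, rose by 0.59 in log2 units (SE 0.07, adjusted p = 4.29e-17), and LPCAT3, an LXR target that remodels phospholipids, fell by 0.29 in log2 units (SE 0.07, adjusted p = 2.74e-04). The libraries overlapped for LPCAT3, and 65.6% of its exon bases are shared with EMG1 on the opposite strand, so its count is uncertain. The neighbours of RXRA had a median of 0.46.

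Of 21 other genes of fatty acid synthesis and use 7 fell, 3 rose and 11 did not pass the test. HACD2, a dehydratase of chain elongation, fell by 0.82 in log2 units (SE 0.06, adjusted p = 5.62e-41), beside a median of -0.53 among its neighbours, and ACSL3, an acyl-CoA synthetase, fell by 0.45 in log2 units (SE 0.05, adjusted p = 5.93e-20), beside 0.16. Of 6 sterol transport genes 4 were called higher and 1 lower with TMM scaling, and 1 (GRAMD1A) higher and 1 lower with spike-in scaling. GRAMD1A, which moves cholesterol from the plasma membrane, rose by 0.49 in log2 units (SE 0.05, adjusted p = 4.09e-20). STARD3, a late endosomal sterol carrier, rose by 0.32 in log2 units (SE 0.07, adjusted p = 3.23e-05) with TMM scaling and was not called with spike-in scaling (adjusted p = 0.109). LIPA, the lysosomal acid lipase, fell by 0.17 in log2 units (SE 0.05, adjusted p = 0.00266), a call lost without wild type replicate 2 (adjusted p = 0.0959), and its libraries overlapped. Of 5 triglyceride genes 2 rose and 2 fell. AGPAT2, an acyltransferase of phosphatidic acid synthesis, rose by 0.86 in log2 units (SE 0.06, adjusted p = 1.36e-39), from 52.4 ± 3.10 to 94.7 ± 6.65 CPM, beside a median of 0.44 among its neighbours. DGAT2, which adds the last acyl chain, rose by 0.88 in log2 units (SE 0.13, adjusted p = 4.56e-11), from 10.8 ± 1.46 to 19.6 ± 1.52 CPM, beside a median of 0.03.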

How the data were processed

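Reads were trimmed with cutadapt 2.10, aligned with STAR 2.7.6a to hg38 and counted per gene with featureCounts (version not stated there), per the submitters' processing notes. The table deposited by the authors holds unnormalised whole-number read counts. Whether counting used strand, and how it treated multi-mapped or overlapping reads, is not given in the sources used here. All 58721 gene identifiers matched GENCODE 29, which gave symbols and positions, and 4 spike-in entries were set apart. In R 4.3.3, edgeR 4.0.16 (filterByExpr at minimum count 10 and total 15, TMM, glmQLFit robust, glmQLFTest) compared double knockout with wild type over all 6 libraries. Two-sided p-values received Benjamini-Hochberg adjustment across every tested gene and were called at 0.05. The common coefficient of variation between libraries of a genotype, beyond counting error, was 2.40%, so small changes could reach small p-values. CPM used TMM-scaled library sizes. The script was tested on simulated data. Alternatives used DESeq2 1.42.0, limma 3.58.1 (voom), other scalings and filters, a replicate block and leaving out each library. Deviations from the group means correlated at only 0.0106, 0.0166 and 0.0085 between libraries that share a replicate number, so the numbers were not used as pairs. The members, related genes and markers were chosen with earlier results of these data known. Genes named were all members, both targeted genes and, per related group, the 2 changed genes with the smallest p (mean of at least 5 CPM) and any gene alone in its direction. Some genes that this rule would name are not reported here.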

Additional observations from a re-analysis of the deposited data

How the results depend on the processing

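Of the 22 called members, 19 kept their call and direction in all 15 refits, the exceptions being MVD, DHCR7 and INSIG1. Spike-in scaling, which rests on 316 to 440 spike counts per library, moved the median of all genes by -0.11. It gave medians of -0.27 in the sterol and -0.30 in the fatty acid branch, 1 higher regulator, 7 higher related genes, and 2133 higher and 4236 lower genes in all. Upper quartile scaling gave 4972 higher and 3227 lower genes in all and a sterol median of -0.095. It left 7 sterol genes lower and 3 higher, since NSDHL was called (0.14, adjusted p = 0.0143). DESeq2 called 3027 genes higher and 3138 lower. With the replicate block all members kept their calls, and 4054 genes were higher and 4055 lower. Leaving out 1 library gave 8 to 10 lower sterol genes, 5 lower fatty acid genes and 3 to 4 lower regulators. LIPA lost its call with DESeq2 (adjusted p = 0.0519) and upper quartile scaling (0.0751). Signs turned for members near 0, and for INSIG1 with its neighbours subtracted (-0.093). With spike-in scaling NSDHL was -0.033, HSD17B7 -0.10, FADS2 -0.042 and STARD4 -0.058. HSD17B7 was -0.0092 with limma voom and -0.012 without a low-count filter, and EBP was 0.020 with upper quartile scaling. Leaving out 1 library gave -0.11 to 0.11 for HSD17B7, -0.10 to 0.034 for EBP, -0.034 to 0.15 for FADS2 and -0.016 to 0.092 for STARD4. The causes were not tested. The tested members with the fewest counts, FADS2, HSD17B7 and TM7SF2, had SEs of 0.10 to 0.12. The 95% intervals of the uncalled FADS2 (-0.14 to 0.27) and HSD17B7 (-0.22 to 0.23) reached further from 0 than their SEs. Changes larger than the SE could thus also go uncalled at this depth.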

Other observations

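GGPS1, which makes geranylgeranyl diphosphate from the same isoprenoid units, could not be measured either: the table lists 1 count in all 6 libraries together, and 41.0% of its exon bases are shared with other annotated genes, TBCE among them. ABCG1, a sterol exporter and LXR target, did not pass the low-count filter, with 3, 5 and 3 counts in wild type and 8, 14 and 13 counts in the double knockout.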
